A study of Homo sapiens with 4 samples.

Results

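Chemokines are small secreted or membrane-bound proteins that draw leukocytes toward their source, and the 10 genes examined here belong to the classes that attract mononuclear cells rather than neutrophils. They comprise the CC chemokines CCL2, CCL5 and CCL20, the CXC chemokines without the glutamate-leucine-arginine (ELR) motif CXCL9, CXCL10, CXCL11, CXCL12, CXCL14 and CXCL16, and CX3CL1. Every probe set whose only gene symbol in the platform annotation was one of these names was taken, which gave 17 of the 54613 probe sets and covered all 10 genes, out of 19775 genes in all. Of the 10 genes, 5 had a single probe set and 5 had several.

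The cells were HuCCT1, an established human cholangiocarcinoma (bile duct cancer) line, and the labels name no stimulus. One group of 2 arrays is labelled ARID1A wild type and the other group of 2 arrays ARID1A knockout, the latter from clones picked by limiting dilution after a lentivirus carrying Cas9 and a guide against ARID1A and puromycin selection. Whether the wild-type cells went through any of these steps is not stated, nor is it stated that replicates came from different cultures or clones. Spread between arrays, which is all that the p-values measure, may thus be technical. The comparison asks how the expression of these genes differs between cells labelled as lacking ARID1A, the DNA-binding subunit of a SWI/SNF chromatin remodelling complex, and wild-type cells.

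ARID1A mRNA itself was lower in the knockout-labelled arrays, at 6.15 and 5.95 against 8.55 and 8.61 in the wild type (log2 difference −2.53 ± 0.11, SE, limma adjusted p = 0.00014, n = 2 each). Its knockout-labelled mean still lay at percentile 73.9 of all probe sets. The other ARID1A probe sets differed by −1.89 and −1.88, both called lower, and by −0.11, not called (limma adjusted p = 0.74 over all probe sets). A test for exchanged samples set 2 of the 4 arrays apart from the remaining 2. It read the expression of a few marker genes and compared no genotypes. The groups are therefore named by their labels throughout, and a difference between them cannot be told apart from a difference in the origin of the cells. Arrays correlated across genes at 0.997 within the wild type, 0.995 within the knockout-labelled group and 0.92 to 0.921 between groups; genes are not independent replicates. Of 10 measured biliary epithelial markers, 6 were called lower and 1 higher in the knockout-labelled arrays, against 17.2% and 21.5% of all genes (38.7% in either direction). The keratins KRT18 and KRT19 had means of 12.31 and 11.44 in the wild type and 12.55 and 10.52 in the knockout-labelled arrays. KRT8 was the marker called higher (difference 0.82), a call not kept in every alternative, and KRT18, SOX9 and CLDN4 were not called (0.24, 0.22 and −0.24). The largest falls among these epithelial markers were −4.73 for EPCAM, −4.40 for CFTR, −3.51 for CDH1 and −2.32 for KRT7. Of their probe sets, 3 of 6 of CFTR and 1 of 4 of KRT7 were called lower. Without probe sets of the _x_at and _s_at kinds, which can match several transcripts, KRT7 differed by −0.19 and was not called. EPCAM and CDH1 then had no value, and CFTR still differed by −4.40. The leukocyte markers lay low: the general leukocyte antigen PTPRC (CD45) had means of 2.11 and 2.01, and the 13 measured markers summed to between 41.0 and 45.4 on each array, with 1 of them (7.69%), CD14, called (lower). With values under 4.5 set to 4.5, the CD14 difference shrank to −0.46 and was not called. The 10 fibroblast markers summed to between 41.9 and 45.3, a sum in which opposite changes cancel (40% called). COL1A1 and LUM were lower by differences of −4.76 and −5.24, and PDGFRA and ACTA2 were higher by 3.84 and 2.97. Of their probe sets, 3 of 5 of COL1A1, 1 of 2 of LUM, 2 of 4 of PDGFRA and 1 of 3 of ACTA2 were called. Without _x_at and _s_at probe sets LUM differed by −0.10 (limma adjusted p = 0.56), and COL1A1 had no value. Of 10 endothelial markers (sums of 30.7 to 34.6), 2 were called higher (20%), ESAM and TEK, and 0 or 1 when any 1 array was left out. The part of other cell types in the results was not tested, and in bulk RNA fewer cells of a type cannot be told apart from less RNA per cell.

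A chemokine acts by binding a receptor on the cell it attracts, and also by binding heparan sulphate, which holds it near its source. Many of these genes are silent until NF-kB, downstream of cytokine or pathogen receptors, or interferon-activated factors bind their promoters. Inflamed bile duct epithelium is known to secrete several of them, among them CCL2 and CCL20, which are studied for their recruitment of monocytes and of CCR6-bearing lymphocytes and dendritic cells.

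The set of RefSeq promoter sequences used here held 6 of the 10 genes (CCL20, CXCL9, CXCL10, CXCL11, CXCL12 and CXCL14). It held no sequence for CCL5 or for CCL2, CXCL16 and CX3CL1, which differed between the groups (below). The 250 bases before the annotated start are printed for CCL20, the gene with the largest fall, and for the interferon-inducible CXCL9, CXCL10 and CXCL11, whose group means lay at or below percentile 37.5 of all probe sets. Each runs 5′ to 3′ toward the start, and capitals mark matches on either strand to the kappaB consensus, the letters NF-kB recognises, or to the core of the interferon-stimulated response element, searched as GAAA, any 2 bases and GAAA again.
CCL20, GRCh38.p14 chr2:227813592-227813841, plus strand: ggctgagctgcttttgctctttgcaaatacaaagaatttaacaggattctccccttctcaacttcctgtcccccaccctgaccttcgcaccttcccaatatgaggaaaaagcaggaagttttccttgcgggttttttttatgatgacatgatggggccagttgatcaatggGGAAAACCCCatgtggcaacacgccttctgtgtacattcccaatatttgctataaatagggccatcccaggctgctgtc
CXCL9, GRCh38.p14 chr4:76007510-76007759, minus strand: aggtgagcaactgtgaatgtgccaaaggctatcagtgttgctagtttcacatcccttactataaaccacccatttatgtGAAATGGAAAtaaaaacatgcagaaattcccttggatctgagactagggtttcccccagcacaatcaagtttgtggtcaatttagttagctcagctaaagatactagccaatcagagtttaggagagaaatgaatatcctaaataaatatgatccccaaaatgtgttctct
CXCL10, GRCh38.p14 chr4:76023498-76023747, minus strand: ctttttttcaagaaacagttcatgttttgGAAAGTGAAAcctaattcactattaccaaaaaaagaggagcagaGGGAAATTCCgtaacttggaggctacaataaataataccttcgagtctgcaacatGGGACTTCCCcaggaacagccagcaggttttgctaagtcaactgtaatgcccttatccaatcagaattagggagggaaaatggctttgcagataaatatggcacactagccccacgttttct
CXCL11, GRCh38.p14 chr4:76036071-76036320, minus strand: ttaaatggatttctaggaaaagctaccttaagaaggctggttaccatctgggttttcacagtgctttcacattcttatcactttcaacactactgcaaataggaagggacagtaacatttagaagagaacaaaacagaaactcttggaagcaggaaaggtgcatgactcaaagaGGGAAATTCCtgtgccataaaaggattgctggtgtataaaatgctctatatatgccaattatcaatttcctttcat
The kappaB consensus matched at 79 to 70 bases before the start of CCL20 (on the minus strand), at 177 to 168 and 122 to 113 bases before CXCL10 and at 76 to 67 bases before CXCL11. The response element core matched at 171 to 162 bases before CXCL9 and 221 to 212 bases before CXCL10. No match of either motif overlapped one of the other. Among 35116 promoters of the same length, 5.21% held a kappaB match and 3.02% a response element match, against 3 and 2 of these 6 genes. The capitals describe letters in a window and not occupied sites, and the windows of CXCL12 and CXCL14 held neither motif.

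Over the 10 genes, 3 fell and 1 rose between the labelled groups, and the remaining 6 did not pass the threshold (limma adjusted p under 0.05 over all 19775 genes, 1 probe set a gene). The monocyte attractant CCL2, the CCR6 ligand CCL20 and the CXCR6 ligand CXCL16 were lower, and CX3CL1, the ligand of CX3CR1, was higher. The 4 called genes make 40% of the members, and 38.7% of all genes were called, so that the number of calls does not set these genes apart. By direction, 17.2% of all genes were called lower and 21.5% higher. The size of the falls was less common: CCL2 and CCL20 both fell by more than 16-fold, a bound that 184 genes (0.93% of all genes) passed downward. The members were chosen with earlier results of these data known, so this share is descriptive and gives no independent support. Groups did not overlap in 7 of the 10 genes, 4 of them lower and 3 higher, against 66.4% of all genes (28.6% lower and 37.8% higher). The median log2 difference was 0.01 over the 10 genes and 0.06 over all genes. All values below are deposited RMA values on the log2 scale, differences are knockout-labelled minus wild type, and since RMA gives no detection call a value low on the array is not evidence of a measured transcript.

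**Figure D1:**
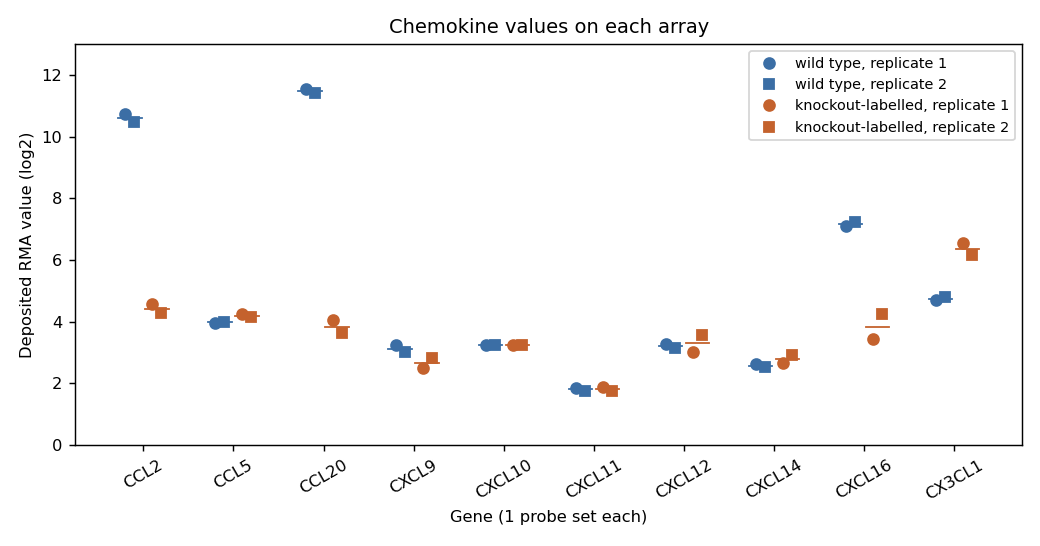
Deposited log2 RMA value (vertical axis) of 1 probe set for each of the 10 chemokine genes (horizontal axis) on the 2 wild-type arrays (blue) and the 2 knockout-labelled arrays (orange), with short lines at the group means; circles are replicate 1 and squares replicate 2. CCL2, CCL20 and CXCL16 are far lower and CX3CL1 is higher in the knockout-labelled arrays, while the other 6 genes lie below 4.3 on every array; levels of different probe sets are not comparable with each other.

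Among the CC chemokines, CCL2 attracts monocytes, memory T cells and dendritic cells through CCR2. Its value was 10.72 and 10.49 on the wild-type arrays and 4.56 and 4.29 on the knockout-labelled arrays. The groups were separated by far more than the replicates of either, which lay 0.23 and 0.27 apart. CCL2 fell by 6.17 ± 0.15 on the log2 scale (SE, limma adjusted p = 2.87e-05), or 72.2-fold on the deposited scale. Its mean moved from percentile 98.0 of all probe sets in the wild type to percentile 56.5 in the knockout-labelled arrays. CCL2 had 1 probe set, of the _s_at kind that can match several transcripts, so no other probe set checks it.

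CCL20 binds CCR6, which is carried by immature dendritic cells, B cells and T helper 17 cells. It stood at 11.53 and 11.41 on the wild-type arrays and at 4.06 and 3.62 on the knockout-labelled arrays. This was the largest difference among the 10 genes, a fall by 7.63 ± 0.17 on the log2 scale (SE, adjusted p = 2.57e-05) or 198-fold on the deposited scale. Its mean went from percentile 99.0 to percentile 47.5, and with all values under 4.5 set to 4.5 it fell by 6.97 or 125-fold. CCL20 also had a single probe set.

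CCL5 (RANTES) attracts T cells, natural killer cells and eosinophils and binds CCR1 among its receptors. Its values were 3.96 and 4.003 in the wild type and 4.24 and 4.14 in the knockout-labelled arrays. These groups did not overlap, but the difference of 0.21 did not pass (95% interval −0.05 to 0.46, limma adjusted p = 0.17). The other 2 probe sets of CCL5 differed by 0.22 and 0.35 and did not pass either (adjusted p = 0.44 and 0.11 over all 54613 probe sets). All 3 pointed the same way with small values.

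**Figure D2:**
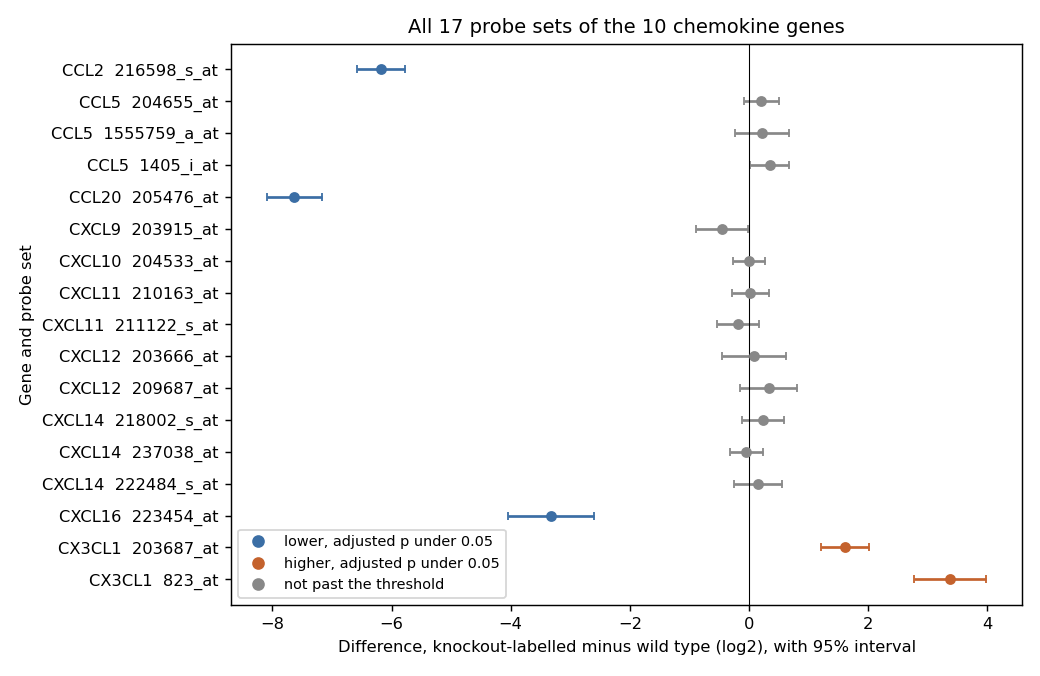
Difference between knockout-labelled and wild-type means (log2, horizontal axis) with its 95% interval from limma for each of the 17 probe sets of the 10 chemokine genes (vertical axis). The single probe sets of CCL2, CCL20 and CXCL16 and both probe sets of CX3CL1 are past the threshold, and the other 12 probe sets lie within 0.5 of 0.

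The CXCR3 ligands CXCL9, CXCL10 and CXCL11 draw activated T cells and natural killer cells and are induced by interferon gamma. None passed the threshold in either direction, and each was low on all 4 arrays. CXCL9 was 3.23 and 3.01 in the wild type and 2.49 and 2.84 in the knockout-labelled arrays, without overlap. Its difference of −0.46 ± 0.16 (SE) missed the threshold (limma adjusted p = 0.082, 95% interval −0.87 to −0.04 before adjustment), and it passed when the arrays were quantile normalized again (adjusted p = 0.048).

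CXCL10 (IP-10) had the same deposited value, 3.23, on all 4 arrays. Such a tie was found in 37 of the 54613 probe sets. The spread of CXCL10 was therefore 0 in both groups, and its interval of −0.24 to 0.24 rests wholly on the variance that limma borrows from other genes.

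CXCL11 (I-TAC) was 1.85 and 1.76 in the wild type and 1.90 and 1.76 in the knockout-labelled arrays, with overlapping groups (difference 0.02, 95% interval −0.25 to 0.30, limma adjusted p = 0.90). Its other probe set differed by −0.18 (adjusted p = 0.41). The means of the CXCL11 probe sets lay between percentiles 2.31 and 8.88. CXCL9 and CXCL10 lay somewhat further up, at percentiles 35.5 and 37.5 in the wild type and 26.3 and 37.1 in the knockout-labelled arrays.

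CXCL12 (SDF-1) holds and recruits CXCR4-bearing stem cells, lymphocytes and tumour cells and is made mainly by stromal cells. It was 3.29 and 3.14 in the wild type and 3.03 and 3.58 in the knockout-labelled arrays. The knockout-labelled values lay on either side of the wild type ones (difference 0.09, 95% interval −0.43 to 0.61, limma adjusted p = 0.78). Its other probe set differed by 0.33 (adjusted p = 0.28).

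CXCL14 (BRAK), a chemokine of epithelia that attracts monocytes and immature dendritic cells, was 2.62 and 2.52 in the wild type and 2.67 and 2.92 in the knockout-labelled arrays. The difference of 0.23 did not pass (95% interval −0.10 to 0.55, limma adjusted p = 0.24). Its other 2 probe sets differed by −0.05 and 0.15 (adjusted p = 0.82 and 0.57), so the 3 did not share a direction.

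CXCL16 and CX3CL1 are the members of the family made as membrane-anchored proteins, with the chemokine domain on a mucin-like stalk, and are released by the proteases ADAM10 and ADAM17. CXCL16 attracts CXCR6-bearing T cells and natural killer T cells and also binds oxidised lipoprotein. It was 7.11 and 7.23 in the wild type and 3.44 and 4.24 in the knockout-labelled arrays. Its knockout-labelled replicates lay 0.80 apart, the widest gap among the 10 genes, yet both were below both wild-type values. CXCL16 fell by 3.33 ± 0.27 on the log2 scale (SE, limma adjusted p = 0.00079), or 10.0-fold on the deposited scale. With values under 4.5 set to 4.5, which replaces both knockout-labelled values, it fell by 2.67 or 6.36-fold.

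CX3CL1 (fractalkine) attracts CX3CR1-bearing monocytes, natural killer cells and cytotoxic T cells and was the single member that rose. Its probe set with the higher mean over the 4 arrays was 4.70 and 4.79 in the wild type and 6.54 and 6.18 in the knockout-labelled arrays, a rise of 1.61 ± 0.15 (SE, limma adjusted p = 0.0012) or 3.05-fold. The other probe set was 3.61 and 3.90 in the wild type and 7.43 and 6.84 in the knockout-labelled arrays, a rise of 3.38 ± 0.23 (adjusted p = 0.00096 over all probe sets) or 10.4-fold on the deposited scale. With its wild-type values, both under 4.5, set to 4.5, that difference was 2.63 or 6.19-fold, a value added after the data were seen and given with no test. Both probe sets separated the groups in the same direction, and both were higher on knockout-labelled replicate 1 than on replicate 2. The mean of both was a rise of 2.49 (adjusted p = 0.00017). Without wild-type replicate 1, neither CX3CL1 probe set passed over all probe sets (adjusted p = 0.074 and 0.052), and without wild-type replicate 2 only the second did (0.067 and 0.047). CXCL16 likewise missed the threshold over all probe sets without wild-type replicate 1 or 2 (adjusted p = 0.064 in both), while the test over genes still called both genes (adjusted p at most 0.034). CXCL16 and CX3CL1, which share their membrane-anchored design, thus moved in opposite directions between the groups.

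Over all 17 probe sets, 3 were called lower and 2 higher, and 12 were not called. In the fit of all 54613 probe sets 26.9% were called, 13% lower and 13.9% higher. Of the 17, 10 had groups that did not overlap, against 60.3% of all probe sets.

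**Figure D3:**
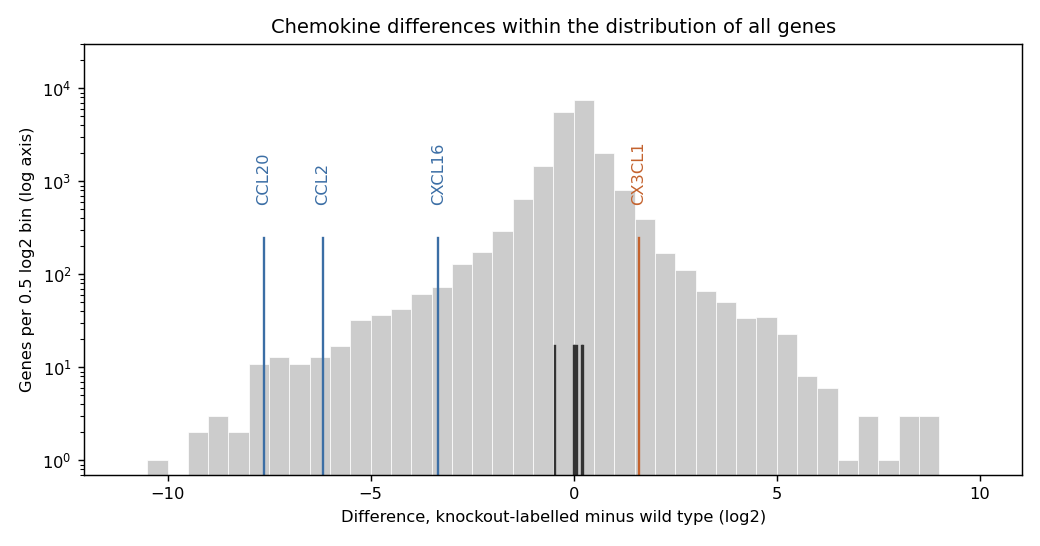
Number of genes (vertical, log axis) in each bin of 0.5 of the log2 difference between knockout-labelled and wild-type arrays (horizontal axis) for all 19775 genes, with vertical lines at the 10 chemokine genes: blue for those called lower, orange for the one called higher, black for the 6 not called. CCL20 and CCL2 stand in the sparse lower tail, CXCL16 and CX3CL1 in the shoulders and the other 6 in the central bins.

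The neighbours of these genes on the chromosome were compared, a step added after the data were seen. The 3 nearest measured protein-coding genes on each side gave 49 distinct genes that are not members, of which 7 were called lower and 9 higher (32.7%, against 38.7% of all genes). CCL2 lies beside the CC chemokine genes CCL7, CCL11 and CCL8 on chromosome 17. Their means did not exceed 3.21 in either group and none was called (differences −0.34, −0.18 and −0.11, limma adjusted p = 0.20, 0.27 and 0.70). On its other side TMEM98 was called lower by a difference of −0.92 (adjusted p = 0.027). CX3CL1 lies between the chemokine genes CCL22 and CCL17 on chromosome 16, and neither was called (differences 0.18 and 0.23, adjusted p = 0.41 and 0.35), while ARL2BP, CIAPIN1 and COQ9 close by were called higher by 1.26, 1.10 and 0.82. Near CCL20 on chromosome 2, PID1 and DAW1 were called lower by differences of −4.44 and −1.54 and AGFG1 higher by 1.03. Around the uncalled CXCL12, 5 of 6 neighbours were called higher, with RASSF4 at 2.05 and ZNF32 at 1.97, and near the uncalled CXCL14, TGFBI and MACROH2A1 were called lower by differences of −2.48 and −1.69. CXCL9, CXCL10 and CXCL11 stand together on chromosome 4, with ART3 between CXCL9 and CXCL10, and the means of these 4 genes lay between 1.71 and 3.23. SDAD1, adjacent to CXCL9, had means of 8.45 and 8.05 in wild-type and knockout-labelled arrays and was not called (adjusted p = 0.056). NUP54, adjacent to CXCL11 on the other side, was called lower by a difference of −0.33 (adjusted p = 0.048). Beside CXCL16 on chromosome 17, MED11 was called lower by a difference of −0.70 (adjusted p = 0.0093), and its other neighbours were not called.

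The receptors of these ligands are mostly leukocyte genes, and 7 were measured, of which 1 was called lower and 1 higher (28.6%, against 38.7% of all genes). CXCR4, the CXCL12 receptor, was 6.45 on both wild-type arrays and 3.995 on both knockout-labelled arrays, a fall by 2.46 ± 0.09 on the log2 scale (SE, limma adjusted p = 8.63e-05), with 2 of its 3 probe sets called. The mean of its 3 probe sets gave a smaller difference, −1.25. CCR1, a receptor of CCL5, was called higher from a mean of 2.39 to one of 3.005 (adjusted p = 0.025), but not with its 2 probe sets averaged (0.23), or when wild-type replicate 1 (0.17), wild-type replicate 2 (0.15) or knockout-labelled replicate 2 (0.061) was left out. CCR2, CCR6, CXCR3, CXCR6 and CX3CR1, the receptors of CCL2, CCL20, the CXCR3 ligands, CXCL16 and CX3CL1, had means of 2.44, 1.94, 4.402, 3.94 and 2.48 in the wild type and 2.64, 1.98, 4.41, 3.91 and 2.38 in the knockout-labelled arrays. None of these 5 passed the threshold. Of the 4 atypical receptors, which bind chemokines without attracting the cell, ACKR2 was called higher (3.48 to 3.86, adjusted p = 0.035), a call lost when any of the 4 arrays was left out (adjusted p from 0.094 to 0.19). ACKR3, which also binds CXCL11 and CXCL12, was 3.73 and 4.33 in the wild type and 3.44 and 2.94 in the knockout-labelled arrays and did not pass (difference −0.84, adjusted p = 0.062). With a variance trend, or with crossed replicate numbers, 1 of the 4 atypical receptors was called lower.

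Proteases that shed or trim chemokines included 3 genes called higher and 1 lower of 7 (57.1%, against 38.7% of all genes). ADAM10, the main sheddase of CXCL16 and CX3CL1 in resting cells, rose by 0.74 ± 0.10 (SE, limma adjusted p = 0.0044) from 10.71 to 11.45. ADAM17, the sheddase of stimulated cells, rose by 0.38 ± 0.10 (adjusted p = 0.039). DPP4 (CD26), which removes the amino-terminal dipeptide of CXCL10, CXCL12 and other chemokines and weakens them, rose by 0.79 ± 0.11 (adjusted p = 0.0045). Of 3 probe sets each, 2 of ADAM10, 0 of ADAM17 and 1 of DPP4 were called higher in the fit of all probe sets. CTSS, a cathepsin, fell by 3.91 ± 0.10 (adjusted p = 3.03e-05) with all 3 of its probe sets called. The ADAM17 call was lost without any one array (adjusted p from 0.055 to 0.19), and 1 of the 3 rises was called without wild-type replicate 1 and 1 without wild-type replicate 2.

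Heparan sulphate proteoglycans, their synthetic enzymes and serglycin, which retain or store chemokines, split evenly, with 4 higher and 4 lower of 9 (88.9% called, against 38.7% of all genes). Syndecan-2 (SDC2) rose by 2.78 ± 0.11 (SE, limma adjusted p = 9.24e-05), and syndecan-4 (SDC4) fell by 2.18 ± 0.11 (0.00017). SRGN, serglycin, fell by 5.29 ± 0.10 (adjusted p = 1.85e-05), from 7.42 to 2.14, with 2 of its 3 probe sets called. EXT2, a heparan sulphate polymerase, fell by 1.36 ± 0.09 (adjusted p = 0.00047). Without wild-type replicate 1, or without replicate 2, 2 of this list were called higher and 3 lower. Its median difference was 0.17.

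**Figure D4:**
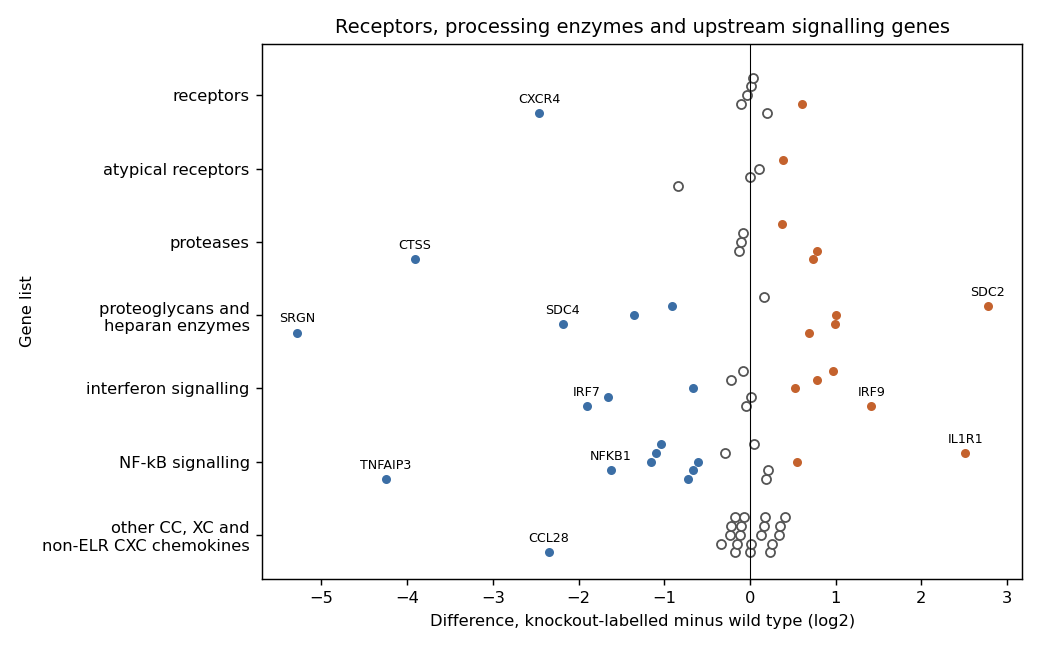
Log2 difference between knockout-labelled and wild-type arrays (horizontal axis) for each measured gene of 7 lists around the chemokines (rows). Filled blue points are called lower, filled orange points higher and open points not called, and vertical offsets within a row only separate the points; CXCR4 and CCL28 stand alone to the left of their lists, and 8 of the 14 NF-kB signalling genes are blue.

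Among the genes through which NF-kB reaches chemokine promoters, 8 fell and 2 rose of 14, with a median difference of −0.63 (71.4% called, against 38.7% of all genes). The subunit genes NFKB1, RELB, REL, NFKB2 and RELA were all called lower, by differences of −1.62, −1.10, −0.72, −0.66 and −0.60, as was TLR3, a receptor of double-stranded RNA (−1.15). NFKB1 and RELB had 1 probe set each. In the fit of all probe sets, 2 of 5 of REL, 1 of 3 of NFKB2, 1 of 2 of RELA and 2 of 3 of TLR3 were called lower. TNFAIP3 (A20), a feedback inhibitor that NF-kB itself induces, fell by 4.25 ± 0.10 (SE, limma adjusted p = 2.57e-05), and the inhibitor NFKBIA by 1.04 ± 0.16. Of their probe sets, 2 of 2 of TNFAIP3 and 1 of 2 of NFKBIA were called lower. IL1R1, the interleukin-1 receptor, rose by 2.51 ± 0.15 (adjusted p = 0.00031), from 4.60 to 7.11, with 1 of its 2 probe sets called. Without wild-type replicate 1 only 2 of the 8 falls and 1 of the 2 rises were called, as was so without wild-type replicate 2, while 7 or 8 falls were called without either knockout-labelled array. Genes called over the whole table also dropped in those fits, from 7657 to 3939 and 4061.

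Interferon signalling genes, which lead to the CXCR3 ligands, moved both ways, with 4 higher and 3 lower of 11 measured and a median difference of −0.05 (63.6% called, against 38.7% of all genes). IRF7 fell by 1.91 ± 0.12 (SE, limma adjusted p = 0.00037) and IRF1, a transcription factor of interferon gamma responses, by 1.65 ± 0.12 (0.00055). IRF9, the DNA-binding subunit of the type I interferon complex, rose by 1.41 ± 0.18 (adjusted p = 0.0031), and the receptor chain IFNAR1 by 0.97 ± 0.16 (0.0076). Of the 4 probe sets of IFNAR1, 1 was called higher. The 4 rises became 0 without wild-type replicate 1 and 2 without each of the other arrays in turn.

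The other CC, XC and non-ELR CXC chemokines formed a low background, with 1 called of 20 measured (5% against 38.7% of all genes). The exception was CCL28, an epithelial chemokine of mucosae that binds CCR10 and CCR3. It was 5.69 and 5.85 in the wild type and 3.20 and 3.64 in the knockout-labelled arrays, a fall by 2.35 ± 0.17 on the log2 scale (SE, limma adjusted p = 0.00059), with all 3 probe sets called. Without knockout replicate 2, 3 of the 20 were called lower. The neutrophil-attracting CXC chemokines with the ELR motif, listed with PF4, which lacks it, were called lower in 8 of 8, with a median difference of −7.21. CCL20 and CCL2 were within the range of these 8 falls, from −2.37 for PF4 to −10.34 for CXCL5. Whether the 10 members differ from these genes as a group was not tested.

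**Figure D5:**
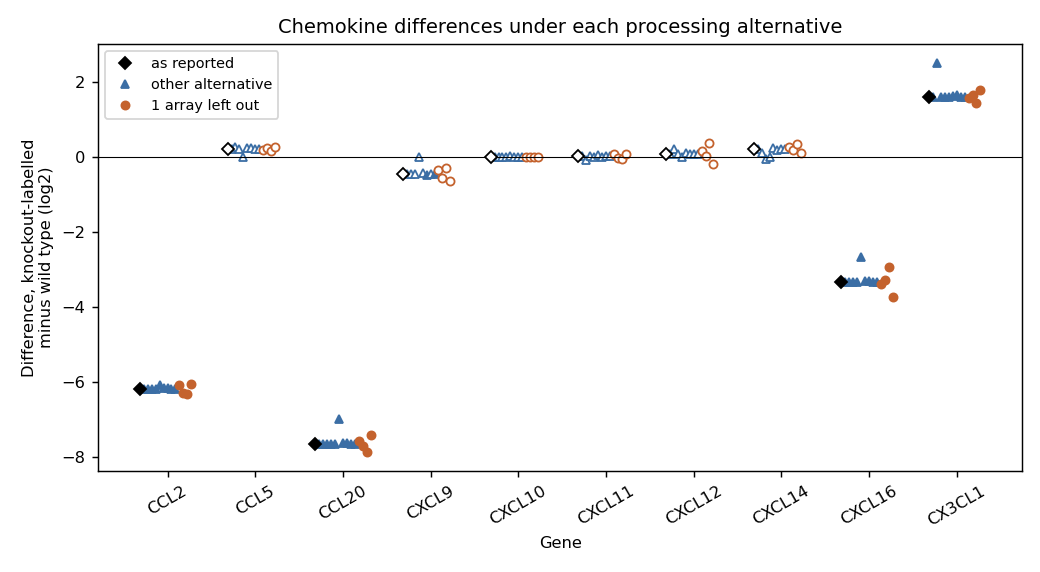
Log2 difference between knockout-labelled and wild-type arrays (vertical axis) for the 10 chemokine genes (horizontal axis) as reported (black diamonds), under the other processing alternatives (blue triangles) and with 1 array left out (orange circles); symbols are filled where the adjusted p was under 0.05. CCL2, CCL20, CXCL16 and CX3CL1 stay filled on their side of 0 in every fit that measured them, while the other 6 genes stay nearer 0. Of these, CXCL9 is filled when arrays were quantile normalized again and with crossed replicate numbers, and it reached −0.63 with 1 array left out.

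The calls of CCL2, CCL20, CXCL16 and CX3CL1 held in every fit over genes that measured them. Leaving out each array in turn gave differences from −6.31 to −6.04 for CCL2, from −7.85 to −7.41 for CCL20, from −3.73 to −2.93 for CXCL16 and from 1.43 to 1.79 for CX3CL1, with limma adjusted p of at most 0.034. Among the 10 genes, then, CCL2 (a ligand of CCR2), CCL20 (of CCR6) and CXCL16 (of CXCR6) were lower and CX3CL1 (of CX3CR1) was higher in the knockout-labelled arrays, while CCL7 and CCL8, which also bind CCR2, were not called. For the CXCR3 ligands, for CXCL12, for CCL5 and for CXCL14 no difference passed the threshold, which at these low values does not show that none exists.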

How the data were processed

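Total RNA of 4 samples of HuCCT1 cells, 2 labelled wild type and 2 labelled knockout, was measured on Affymetrix arrays. Per the submitters' processing notes the authors used RMA and the affy package (version not given in the sources used here), and the deposited values, 1 column per array, were read as log2 because they run from 0.866 to 13.9 with array medians of 3.99 to 4.03. Arrays have no read depth, and precision is limited by their number. Names came from the platform annotation of 2016: 41091 had 1 symbol, 1801 several and 11721 none, and 41037 were matched to RefSeq by gene identifier. Each gene was represented by its probe set with the highest mean. The 19775 genes, and separately all 54613 probe sets, were fitted with limma 3.58.1 in R 4.3.3 (lmFit, eBayes, no covariate), with Benjamini-Hochberg adjustment over the whole table and a threshold of 0.05. The fit was tested on simulated data. Intervals are limma's 95% intervals, unadjusted. The 10 members and the 13 lists (146 genes, 133 measured) were chosen with earlier results of these data known. Named were all members, all receptors, ARID1A and up to 4 called genes per list by size of change; other names (chromosome neighbours, additional list genes) were added after their values were seen. Alternatives were a variance trend, averaged probe sets, no _x_at or _s_at probe sets, filters at the 40th and 60th percentiles, a floor at 4.5, centring or quantile normalizing again, a block for the replicate number, and omission of each array in turn. Promoter sequences are RefSeq's on GRCh38.p14; the probes were not mapped to it.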

Additional observations from a re-analysis of the deposited data

How the results depend on the processing

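Of the differences of the 10 chemokine genes under the alternatives, 117 kept direction and side of the threshold, 2 passed it anew and 6 turned sign without a call. The 117 include those of CXCL10, whose difference of 0 has no direction, so that only its side of the threshold was compared. CXCL9 passed when arrays were quantile normalized again (−0.48, adjusted p = 0.048) and with crossed replicate numbers. CXCL11 turned to −0.080 with probe sets averaged and to −0.0079 when quantile normalized again, and ran from −0.045 to 0.091 with 1 array left out. CXCL12 ran from −0.18 (without knockout replicate 2) to 0.36 with 1 array left out, and CXCL14 turned to −0.045 without _x_at and _s_at probe sets. Among uncalled receptors, leaving out 1 array gave ranges of −0.14 to 0.22 for CCR6, −0.10 to 0.043 for CXCR6 and −0.13 to 0.15 for CXCR3. CXCR3 was −0.047 with probe sets averaged, −0.11 without _x_at and _s_at probe sets and −0.00019 with the floor. The cause was not tested.

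The count of chemokine genes called higher became 0 without genes under the 60th percentile, because CX3CL1 was then not tested (nor was CXCL16). Over all probe sets the count called higher was 0 to 2 when 1 array was left out, and that called lower 2 to 3. Without _x_at and _s_at probe sets CCL2 had no value and 2 genes were called lower. The replicate number as a block left 3 genes called lower and 1 higher. Over all genes it left 6679 calls of 7657. The labels give the numbers no meaning, and the deviations of same-numbered arrays from their group means correlated at −0.105 across genes. Crossed pairing, chosen after seeing the data, gave 4 lower and 1 higher of the 10 genes, and 7301 of all genes. A lone array of a group was assumed to vary like the other group. Over probe sets the floor was not run, since 51.2% of probe sets would then have no variance within groups. Over genes it was run, but the median difference over all genes was then 0, so calls from that fit are also uncertain. The filters left 4 and 2 of the 10 genes, and the calls of dim members rest on values with no detection call. Genes called over the table fell from 7657 to 5166 with the floor, and leaving out wild-type replicate 1 or 2 gave 3939 and 4061.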
